A study of Homo sapiens with 4 samples.

Results

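The genes described here were 10 regulators of protein destruction in the cell cycle, CDC20, FZR1, FBXO5, FBXO43, UBE2C, UBE2S, PTTG1, SKP2, CKS1B and CKS2. They were chosen by symbol, with their values in shRALY against shControl already known, and were matched by Ensembl identifier in GENCODE 29. All 10 were found among the 58735 genes of the count tables, and all 10 were among the 15912 genes with enough counts to test. Because this contrast chose them, their differences are given as a description with standard errors and no test.

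The study depleted the hnRNP-type RNA-binding protein RALY in A549 cells, which are a human lung adenocarcinoma line. The shRALY group (labelled RALY knockdown) was infected with a lentivirus carrying a hairpin against RALY, and the shControl group (labelled WT) with a control hairpin lentivirus, both sampled on day 2. Each group had 2 libraries of polyadenylated RNA. The labels name neither the hairpin sequences nor separate cultures for the 2 libraries of a group, so errors and p-values reflect only how far these libraries differ, which may be technical.

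The anaphase-promoting complex (APC/C) and the SCF complex are multi-subunit ubiquitin ligases that mark cell cycle proteins for the proteasome. The APC/C works with the activator CDC20 in mitosis and with FZR1 (also called CDH1) in late mitosis and G1, and it triggers chromosome separation and mitotic exit by destroying securin and the mitotic cyclins. The SCF complex takes its target through an F-box protein. With the F-box protein SKP2 and the accessory protein CKS1B it removes the CDK inhibitor p27 before and during S phase.

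Total counts were 18632787 and 16823605 in shRALY replicates 1 and 2 and 17587717 and 16745818 in shControl replicates 1 and 2. RALY had 751 and 679 counts in shRALY and 2208 and 2272 in shControl, or 41.2 ± 0.47 CPM in shRALY and 128 ± 7.15 CPM in shControl (CPM, normalised reads per 1000000, SD, n = 2 each). The 5 epithelial markers KRT8, KRT18, KRT19, EPCAM and CDH1 (the cadherin gene) summed to between 5708 and 5886 CPM in shRALY and between 5294 and 5787 CPM in shControl, nearly all of it KRT8 and KRT18. Within that sum KRT19 had 324 and 299 CPM in shRALY, against 90.2 and 101 CPM in shControl. The 5 alveolar type II markers summed to between 0.856 and 1.85 CPM in shRALY and between 1.41 and 1.67 CPM in shControl, so defining surfactant genes of that cell type were at or near 0. The 5 immune markers summed to between 8.44 and 11.4 CPM in shRALY and between 9.49 and 11.5 CPM in shControl, nearly all of it CD14 and CORO1A. The 3 fibroblast markers summed to between 14.1 and 17.4 CPM in shRALY and between 19.04 and 19.14 CPM in shControl, mostly COL1A1, and the 3 endothelial markers to between 0.0544 and 0.183 CPM in shRALY and between 0.502 and 0.822 CPM in shControl.

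Promoter sequence was looked at as a description, for genes chosen with their values in this contrast already known. Mitotic genes often carry a CCAAT box, bound by NF-Y, a short distance before a cell cycle homology region (CHR, written TTTGAA or TTTAAA), which binds the MuvB complex. RefSeq promoters (GRCh38.p14) running from 250 bases before to 50 after each gene start were matched for 8 of the 10 genes; FBXO43 and UBE2C were not matched. On either strand, 5 of the 8 (CDC20, CKS1B, CKS2, PTTG1 and FBXO5) held both CCAAT and TTTGAA or TTTAAA within the same promoter. Counted per promoter and not per gene, that combination was found in 9.27% of all 35116 promoters of that length. Some genes have more than one promoter. Alone, TTTGAA stood in 15.2%, TTTAAA in 12.2% and CCAAT in 34.6% of all promoters. The last 120 bases before the RefSeq start are shown for these 5 genes, with SKP2, which held none of these letters, for contrast. Each reads 5′ to 3′ on the gene's own strand, and capitals mark these letters on either strand.

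CDC20, chr1:43358861-43358980, plus strand: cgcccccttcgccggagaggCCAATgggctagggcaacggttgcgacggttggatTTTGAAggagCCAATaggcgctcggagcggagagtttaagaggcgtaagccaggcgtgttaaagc
CKS1B, chr1:154974561-154974680, plus strand: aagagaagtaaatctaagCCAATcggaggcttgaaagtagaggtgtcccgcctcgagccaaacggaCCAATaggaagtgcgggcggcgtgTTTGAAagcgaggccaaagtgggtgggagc
CKS2, chr9:89311075-89311194, plus strand: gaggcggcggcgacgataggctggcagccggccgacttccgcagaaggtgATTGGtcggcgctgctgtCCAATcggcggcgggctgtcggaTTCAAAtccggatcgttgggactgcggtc
PTTG1, chr5:160421735-160421854, plus strand: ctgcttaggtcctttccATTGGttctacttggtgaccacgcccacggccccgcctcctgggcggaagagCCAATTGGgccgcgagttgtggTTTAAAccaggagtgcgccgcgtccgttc
FBXO5, chr6:152983042-152983161, minus strand: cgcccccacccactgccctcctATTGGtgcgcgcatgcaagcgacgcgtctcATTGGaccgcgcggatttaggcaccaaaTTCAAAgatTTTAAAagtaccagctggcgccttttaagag
SKP2, chr5:36151991-36152110, plus strand: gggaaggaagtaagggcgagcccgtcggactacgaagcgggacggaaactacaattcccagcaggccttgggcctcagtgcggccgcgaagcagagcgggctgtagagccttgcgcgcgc

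In each of those 5 sequences a CCAAT began 20 to 40 bases before a TTTGAA or TTTAAA, at 35 bases in CDC20, 24 in CKS1B, 23 in CKS2, 22 in PTTG1 and 28 and 37 in FBXO5. That arrangement was found in 1.18% of all promoters, and its limits were chosen after the sequences were seen. The CHR letters started 30 bases before the start site in CKS1B and 29 in CKS2. In PTTG1 they started 29 bases before the first of 2 RefSeq starts, which is the one shown, but 84 before the second. In CDC20 they started farther away, 65 and 178 bases before the start site. FBXO5 carried the letters at the second of its 2 RefSeq starts, 40 and 31 bases before it. FZR1 held 1 TTTGAA, 226 bases before its first start, and no CCAAT. UBE2S held 1 CCAAT, 191 bases before its start, and neither TTTGAA nor TTTAAA. None of the 8 held an E2F site spelled as TTTGGCGC, as TTTCCCGC, as TTTGCCGC or as TTTCGCGC, which stood in 3.31% of all promoters. A match describes the letters and is not evidence of binding, and no match says only that these letters were not in this window.

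All 10 genes were lower in shRALY, with log2 fold changes between -4.18 and -0.66 and a median of -1.76, against a median of -0.01 over all tested genes. Both shRALY libraries lay below both shControl libraries for each of the 10, which was the case for 35.4% of all tested genes, while for 34.2% both lay above. Each was also past an edgeR adjusted p of 0.05, as were 20.4% of all tested genes in that direction and 41.0% in either; nothing is read from either count, since the genes were chosen on this contrast. The genes fell into a steep group (FBXO43, UBE2C, CDC20 and PTTG1, 6.03-fold to 18.1-fold lower), a middle group (UBE2S, CKS2, FBXO5 and CKS1B, 2.31-fold to 3.62-fold lower) and a shallow pair (FZR1 and SKP2, 1.65-fold and 1.58-fold lower). In bulk RNA, fewer cells of a kind, for example in mitosis, and less of a transcript per cell cannot be told apart.

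**Figure D1:**
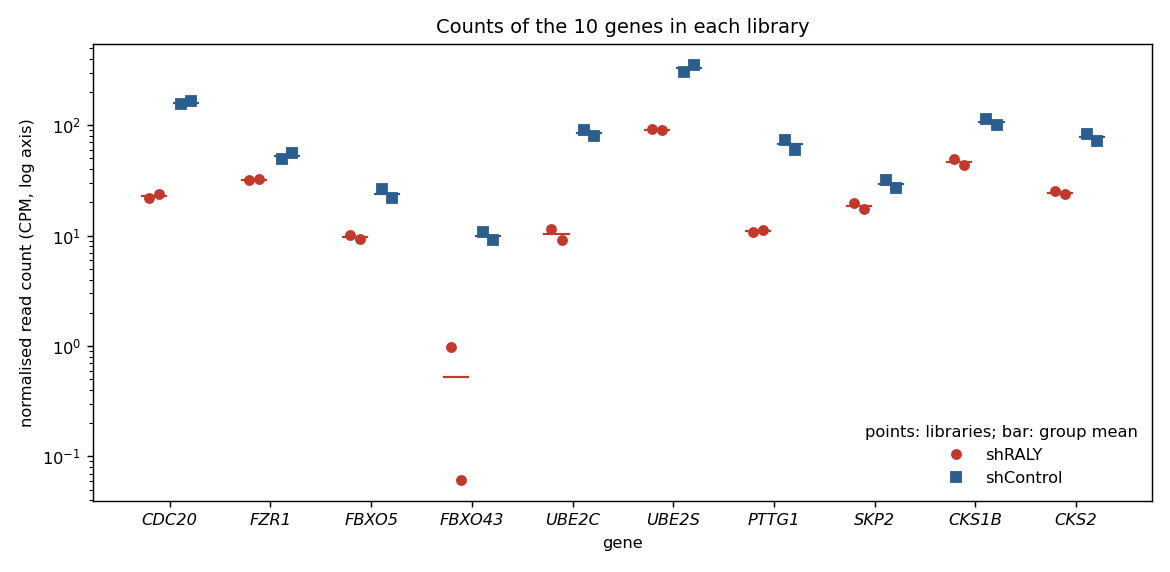
Normalised read counts (CPM, log axis) of the 10 genes, with shRALY libraries as circles and shControl libraries as squares and a bar at each group mean. Every circle lies below both squares of its gene, and FBXO43 in shRALY is the only pair of libraries that stands far apart, at 0.979 and 0.0611 CPM.

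The 2 activators of the APC/C differed in size of change. CDC20 (ENSG00000117399, chromosome 1, 43358955 to 43363203 in GRCh38, plus strand), the mitotic activator and the target of the spindle checkpoint, had 21.8 and 23.7 CPM in shRALY, against 154 and 164 CPM in shControl. Libraries of each group were close together and the groups stood far apart, with a log2 fold change of -2.81 (SE 0.12), or 14.3% of the control level. FZR1 (ENSG00000105325, chromosome 19, 3506273 to 3538330, plus strand), which takes over as activator at mitotic exit, had 31.7 and 32.4 CPM in shRALY, against 49.7 and 56.3 CPM in shControl. It kept 60.4% of its control level, with a log2 fold change of -0.73 (SE 0.12). Within a library, the ratio of CDC20 to FZR1 counts does not depend on how libraries are scaled. That ratio was 0.687 and 0.730 in shRALY and 3.11 and 2.92 in shControl. There were thus fewer CDC20 than FZR1 reads in both shRALY libraries and more in both shControl libraries. Reads are not scaled for gene length, and FZR1 is the longer gene. Per length (TPM, given below), CDC20 stayed above FZR1 in shRALY, at 35.2 against 17.4 TPM.

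Transcripts of both APC/C inhibitors of the EMI family were lower, by different amounts. FBXO5 (EMI1, ENSG00000112029, chromosome 6, 152970519 to 152983579, minus strand), which restrains the APC/C in S and G2 phase, had 10.1 and 9.29 CPM in shRALY, against 26.2 and 21.9 CPM in shControl (log2 fold change -1.31, SE 0.17). FBXO43 (EMI2, ENSG00000156509, chromosome 8, 100133360 to 100145800, minus strand), known for holding eggs in meiotic arrest, was the least abundant of the 10 genes. Its raw counts were 18 and 1 in shRALY, against 195 and 154 in shControl. The shRALY libraries differed by more than counting error, since exact 95% Poisson intervals were 10.7 to 28.4 for 18 counts and 0.0253 to 5.57 for 1 count; such intervals cover counting error only. In CPM these were 0.979 and 0.0611 in shRALY and 10.9 and 9.04 in shControl, with a log2 fold change of -4.18 (SE 0.43). The size rested on which shRALY library was used, at -7.18 without replicate 1 and -3.33 without replicate 2. FBXO43 counts per FBXO5 count were 0.0973 and 0.00658 in shRALY and 0.416 and 0.413 in shControl, a shRALY to shControl quotient of means of 0.125, or 0.0159 without shRALY replicate 1 and 0.235 without shRALY replicate 2.

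Transcripts of UBE2C and UBE2S, ubiquitin-conjugating enzymes that serve the APC/C, stood well below control. UBE2C (ENSG00000175063, chromosome 20, 45812576 to 45816957, plus strand), which places the first ubiquitin on APC/C targets, had 11.5 and 9.17 CPM in shRALY, against 90.6 and 80.1 CPM in shControl (log2 fold change -3.04, SE 0.14). UBE2S (ENSG00000108106, chromosome 19, 55399745 to 55407777, minus strand), which extends the chain, had 92.3 and 89.8 CPM in shRALY, against 306 and 353 CPM in shControl (log2 fold change -1.86, SE 0.11). Transcripts of UBE2C were thus at 12.1% of their control level, and those of UBE2S at 27.6%. Protein was not measured. The UBE2C to UBE2S count ratio was 0.124 and 0.102 in shRALY and 0.296 and 0.227 in shControl, without overlap. UBE2S shared 17.5% of its 50-base words with other transcripts, mainly its processed copies UBE2SP1 and UBE2SP2. UBE2SP1 had 37 and 36 counts in shRALY and 135 and 111 in shControl, and UBE2SP2 had 4 and 9 in shRALY and 24 and 17 in shControl. Against 1697 and 1468 UBE2S counts in shRALY and 5478 and 6015 in shControl, these copies were few.

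PTTG1, which encodes securin, the APC/C target that holds separase inactive until anaphase, had 10.9 and 11.3 CPM in shRALY, against 73.9 and 60.0 CPM in shControl. The gene (ENSG00000164611, chromosome 5, 160421822 to 160428744, plus strand) stood at 16.6% of its control level (log2 fold change -2.59, SE 0.14). ESPL1, which encodes separase, had 10.4 and 9.66 CPM in shRALY and 71.9 and 83.9 CPM in shControl. The PTTG1 to ESPL1 count ratio was 1.05 and 1.17 in shRALY and 1.03 and 0.715 in shControl. Those ranges did not overlap, but the nearest libraries were close. The shRALY to shControl quotient of means was 1.27, and the difference was not tested. The copies PTTG2 and PTTG3P had 0 counts in every library, which allows up to 0.163 and 0.183 CPM in the shRALY libraries and 0.167 and 0.176 CPM in the shControl libraries (3 counts per library).

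On the SCF side, SKP2 changed least and the CKS genes more. SKP2 (ENSG00000145604, chromosome 5, 36151989 to 36184319, plus strand), the F-box protein that recognises p27, had 19.6 and 17.5 CPM in shRALY, against 31.7 and 27.1 CPM in shControl (log2 fold change -0.66, SE 0.15). The SKP2 to CUL1 count ratio, set against the cullin scaffold of the same ligase, was 0.279 and 0.218 in shRALY and 0.262 and 0.237 in shControl, and these ranges overlapped. CKS1B (ENSG00000173207, chromosome 1, 154974653 to 154979249, plus strand), the CDK subunit that SKP2 needs to bind p27, had 49.5 and 43.5 CPM in shRALY, against 114 and 101 CPM in shControl (log2 fold change -1.21, SE 0.12). CKS2 (ENSG00000123975, chromosome 9, 89311198 to 89316703, plus strand), its close paralog, had 25.4 and 23.6 CPM in shRALY, against 82.9 and 72.3 CPM in shControl (log2 fold change -1.66, SE 0.12). CKS2 counts per CKS1B count were 0.513 and 0.543 in shRALY and 0.729 and 0.714 in shControl. These ranges lay apart, with a shRALY to shControl quotient of means of 0.732, and the difference was not tested. CKS1B shared 14.1% of its 50-base words with other transcripts, among them the copies CKS1BP2 (7 and 1 counts in shRALY, 11 and 7 in shControl) and CKS1BP3 (28 and 24 counts in shRALY, 65 and 38 in shControl). CDC20 shared 9.03%, mainly with CDC20P1, which had 0 and 0 counts in shRALY and 1 and 0 in shControl.

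**Figure D2:**
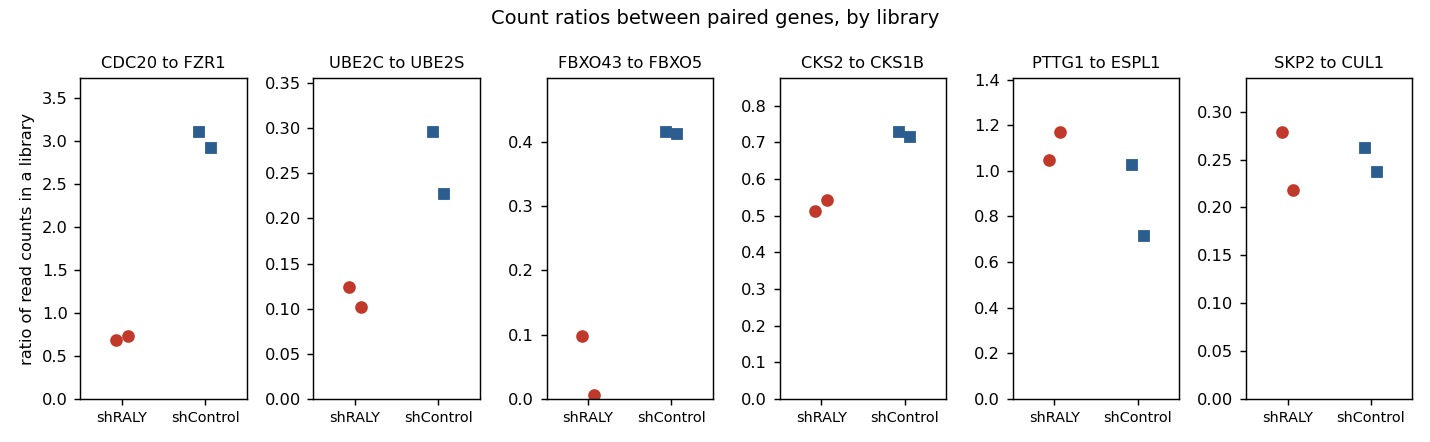
Ratio of raw read counts between paired genes within each library, one panel per pair, with shRALY circles left of shControl squares and each axis starting at 0. The CDC20 to FZR1 ratio lies below 1 in both shRALY libraries. The FBXO43 to FBXO5 ratio is lowest in shRALY, and the SKP2 to CUL1 ranges overlap. Counts are not scaled for gene length, so a ratio below 1 does not show a lower level per length.

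Levels were compared between genes only per length, as TPM, transcript abundance scaled to a fixed total, computed with the merged exons of GENCODE 29. In shRALY the order was CKS2 (126 ± 6.46 TPM), UBE2S (103 ± 2.12), CKS1B (62.7 ± 5.75), CDC20 (35.2 ± 2.06), UBE2C (25.3 ± 4.02), FZR1 (17.4 ± 0.27), PTTG1 (17.4 ± 0.47), SKP2 (15.3 ± 1.195), FBXO5 (7.97 ± 0.45) and FBXO43 (0.416 ± 0.519 TPM; SD, n = 2 each). In shControl it was CKS2 (436 ± 34.9 TPM), UBE2S (408 ± 48.1), CDC20 (270 ± 16.1), UBE2C (229 ± 16.0), CKS1B (158 ± 10.4), PTTG1 (115 ± 14.9), FZR1 (31.5 ± 3.30), SKP2 (26.4 ± 2.45), FBXO5 (21.6 ± 2.37) and FBXO43 (8.69 ± 1.00 TPM; SD, n = 2 each). Neighbours whose library ranges overlapped were FZR1 and PTTG1 in shRALY and CKS2 and UBE2S in shControl. CKS1B thus stood above CDC20 and UBE2C in shRALY and below them in shControl. The order depended on the length used. With the longest transcript as length, an alternative chosen after seeing the data, 17 of the 20 group means moved by more than 1 SD. CKS1B (244 ± 16.9 TPM) then overlapped UBE2C (247 ± 18.1) and CDC20 (238 ± 13.4) in shControl, where UBE2S (343 ± 39.3) had a higher mean than CKS2 (336 ± 27.9) with ranges that overlapped, and FBXO5 (24.4 ± 2.76) stood above SKP2 (20.7 ± 1.99). In shRALY, CKS1B (97.7 ± 8.83 TPM) then stood above UBE2S (87.6 ± 1.69), and PTTG1 (25.4 ± 0.71), which overlapped FZR1 with merged exons, stood above it (15.1 ± 0.26).

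**Figure D3:**
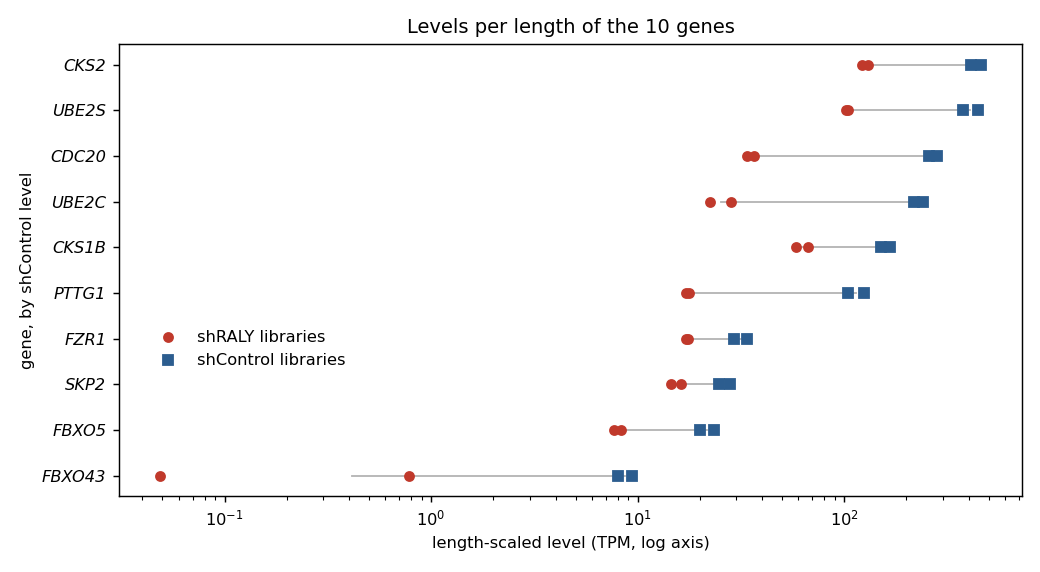
Length-scaled levels (TPM, log axis) of the 10 genes, ordered by their shControl mean, with shRALY libraries as circles, shControl libraries as squares and a line joining the group means. SKP2 and FZR1 have the shortest lines, and PTTG1, CDC20, UBE2C and FBXO43 the longest.

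The other genes of these pathways came from 10 lists, which were chosen with earlier results of these data known. Of their 111 genes, 110 could be tested in the fit across all genes. Among them 13 were higher and 49 lower in shRALY (quasi-likelihood test in edgeR, adjusted by Benjamini-Hochberg to a threshold of 0.05), with a median log2 fold change of -0.23, against 20.6% higher and 20.4% lower of all tested genes. Where a library is left out, the lone library of its group is assumed to vary like the other group, whose 2 libraries alone then give the spread. Such fits called 7032 and 6813 genes with 1 shControl library and 4157 and 4020 with 1 shRALY library, against 6519 with all 4, so a call gained or lost in them also reflects that change of spread. The list medians ran between -2.86, for APC/C substrates, and 0.09, for the CRL4-CDT2 ligase.

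Of 14 core subunits of the APC/C, 5 were lower (ANAPC1, ANAPC2, ANAPC5, CDC23 and CDC27) and 9 did not pass, with a median log2 fold change of -0.27. CDC27, a scaffold subunit that receives the activators, was the largest fall, at 106 ± 4.89 CPM in shRALY and 187 ± 18.3 CPM in shControl (log2 -0.83, SE 0.11; edgeR adjusted p = 2.22e-06). ANAPC5 had 130 ± 4.38 CPM in shRALY and 169 ± 14.0 CPM in shControl (log2 -0.38, SE 0.11; edgeR adjusted p = 0.00695). Dropping shRALY replicate 1 ended that call at an edgeR adjusted p of 0.113, and dropping replicate 2 at 0.21. The ANAPC2 call also ended with replicate 1 dropped, at an edgeR adjusted p of 0.248. Without shRALY replicate 1 the count of lower subunits was 3, and without shControl replicate 1, 2 subunits (CDC16 and CDC26) were higher. ANAPC1 shared 49.2% and CDC26 25.4% of their words with other transcripts, which leaves their counts uncertain.

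Of 8 spindle checkpoint and APC/C inhibitor genes, 6 were lower and 2 did not pass, with a median of -2.49. BUB1B, which encodes the checkpoint protein BUBR1 that binds CDC20, had 5.93 and 7.77 CPM in shRALY and 69.5 and 60.8 CPM in shControl (log2 -3.25, SE 0.16; edgeR adjusted p = 8.37e-14). BUB1 was 6.87-fold lower, and BUB3, their shared partner, 1.90-fold lower, at 98.9 ± 9.92 CPM in shRALY and 188 ± 18.8 CPM in shControl. All 16 listed targets of the APC/C were lower, with a median of -2.86. The spindle assembly factor TPX2 had 41.7 ± 2.99 CPM in shRALY and 282 ± 17.9 CPM in shControl, ANLN, a scaffold of the cleavage furrow, was 9.48-fold lower, and CDCA3 was 10.0-fold lower, the largest fall of the list (edgeR adjusted p between 1.77e-15 and 1.51e-12 for these 3). Destruction of these proteins by the APC/C acts after transcription and is not measured by read counts. NUSAP1, also in that list, shared 68.0% of its words with another transcript and is uncertain.

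Of 4 tested genes of separase and cohesin release, 3 were lower. ESPL1 was 7.76-fold lower (log2 -2.96, SE 0.14; edgeR adjusted p = 6.58e-14). SGO1, the protector of centromeric cohesion, was 7.86-fold lower, and the cohesin subunit RAD21 was 1.88-fold lower. WAPL, which releases cohesin in prophase, had 60.3 ± 0.82 CPM in shRALY and 62.8 ± 3.19 CPM in shControl and did not pass (log2 -0.06, SE 0.11; edgeR adjusted p = 0.717).

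**Figure D4:**
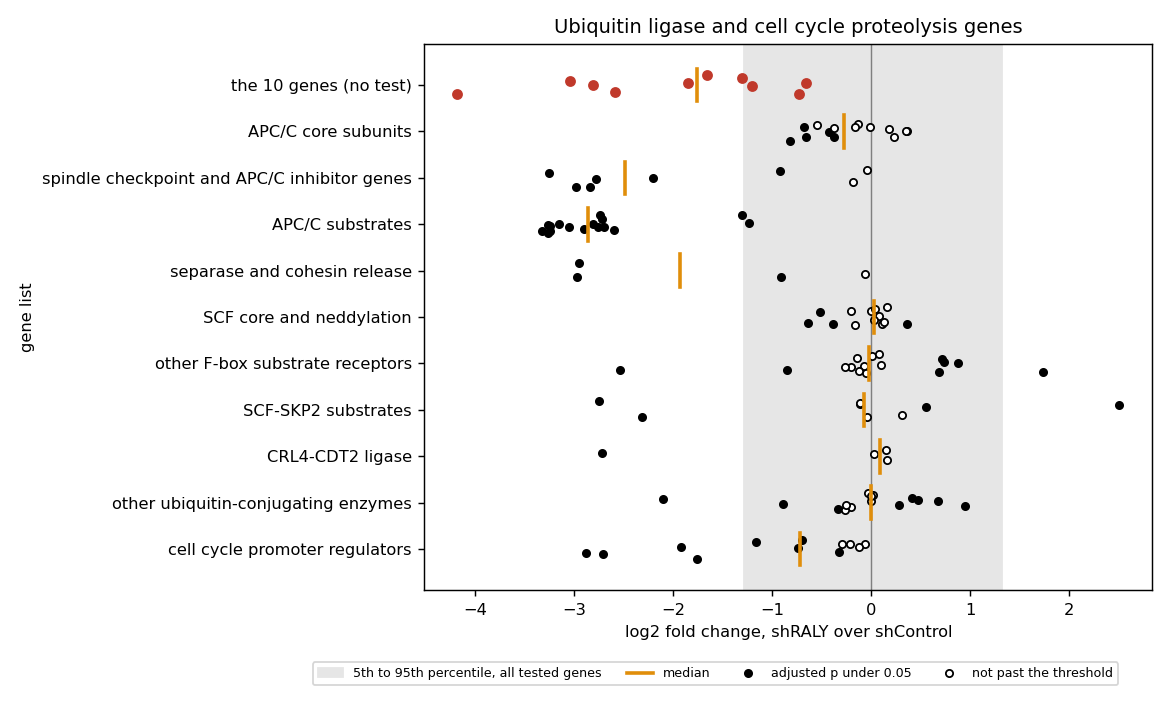
Log2 fold changes, shRALY over shControl, of the 10 genes and of the 10 lists of other pathway genes, 1 point per gene, filled where the edgeR adjusted p was under 0.05, with a bar at each list median; the 10 genes are in red with no test. Grey marks the 5th to 95th percentile of all tested genes, from -1.29 to 1.32; the checkpoint and APC/C substrate lists lie mostly to its left, and the SCF core list lies within it.

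Of 13 genes of the SCF core and its activation by NEDD8, 3 were lower (CUL1, CAND1 and NAE1), 1 was higher (COPS5) and 9 did not pass, with a median of 0.03. CUL1 had 75.4 ± 7.32 CPM in shRALY and 118 ± 4.61 CPM in shControl (log2 -0.64, SE 0.11; edgeR adjusted p = 7.71e-05), and CAND1, which exchanges F-box proteins on CUL1, was 1.43-fold lower. SKP1, the adaptor that holds the F-box protein, had 173 ± 7.39 CPM in shRALY and 173 ± 35.8 CPM in shControl and did not pass, but was called higher without shControl replicate 1 (log2 0.23; edgeR adjusted p = 0.0321). COPS5, a subunit of the COP9 signalosome that removes NEDD8, was 1.28-fold higher; dropping shRALY replicate 1 or 2 ended that call, at edgeR adjusted p = 0.311 and 0.0902. The NAE1 call ended on dropping shRALY replicate 1, shRALY replicate 2 or shControl replicate 1, at edgeR adjusted p = 0.118, 0.224 and 0.0862. The count of higher genes in this list was 2 without shControl replicate 1, 3 without shControl replicate 2 and 0 without either shRALY replicate.

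Other F-box genes went both ways, with 5 higher, 2 lower and 9 not past the test of 16. CCNF, the cyclin F gene, was 5.81-fold lower, at 10.1 and 10.8 CPM in shRALY and 60.6 and 60.7 CPM in shControl (log2 -2.54, SE 0.14; edgeR adjusted p = 6.01e-13), and FBXW2 was 1.81-fold lower. FBXO32, the atrogin gene induced in wasting muscle, was 3.33-fold higher, at 37.3 and 42.2 CPM in shRALY and 13.3 and 10.5 CPM in shControl (log2 1.74, SE 0.15; edgeR adjusted p = 3.87e-09). FBXO22, FBXL2, FBXL12 and FBXW7 were 1.61-fold to 1.83-fold higher. FBXW11, a beta-TrCP gene, had 98.7 ± 4.24 CPM in shRALY and 104 ± 4.96 CPM in shControl and did not pass.

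Of 8 genes whose proteins SCF-SKP2 can target, 2 were higher (CDKN1A and MYC), 2 lower (ORC1 and CDT1) and 4 did not pass. CDKN1A, which encodes the CDK inhibitor p21, was 5.68-fold higher, at 1370 ± 6.13 CPM in shRALY and 241 ± 31.1 CPM in shControl. CDKN1B, which encodes p27, had 36.8 and 45.9 CPM in shRALY and 33.7 and 33.1 CPM in shControl and did not pass (log2 0.31, SE 0.13; edgeR adjusted p = 0.0677). Its adjusted p lay on either side of 0.05 among the alternatives, for example 0.0323 with the replicate number as a block and 0.0388 without shControl replicate 1. ORC1, a subunit of the origin recognition complex, was 6.74-fold lower, and MYC was 1.46-fold higher. In the related CRL4-CDT2 ligase, DTL, which encodes its substrate receptor CDT2, was 6.61-fold lower (edgeR adjusted p = 5.01e-13), and DDB1, CUL4A and CUL4B did not pass; CUL4B was called higher without shControl replicate 1 (log2 0.30; edgeR adjusted p = 0.00407), as was CUL4A (edgeR adjusted p = 0.0491).

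Of 15 other ubiquitin-conjugating enzymes, 5 were higher, 3 lower and 7 did not pass, with a median of -0.0034. UBE2T, the enzyme of the Fanconi anaemia pathway, was the largest fall, 4.29-fold lower, at 12.3 and 9.48 CPM in shRALY and 49.4 and 44.3 CPM in shControl (log2 -2.10, SE 0.15; edgeR adjusted p = 1.25e-10). UBE2H was the largest rise, at 302 ± 4.004 CPM in shRALY and 157 ± 3.61 CPM in shControl (log2 0.94, SE 0.10; edgeR adjusted p = 1.07e-07). UBE2D3, an enzyme used by many ligases, was 1.21-fold higher (edgeR adjusted p = 0.0469), a call lost with library size alone, with no filter on low counts, without shControl replicate 2 and without either shRALY replicate (edgeR adjusted p between 0.0516 and 0.296). The other lower genes, UBE2N and UBE2V1, overlap NUDT4 on the opposite strand over 39.5% of exonic bases and share 81.2% of words with a read-through transcript, so both are uncertain. Without 1 library the lower count ran from 1 (without shControl replicate 1 or shRALY replicate 1) to 6 (without shControl replicate 2), and the higher count from 2 (without shRALY replicate 1) and 3 (without shControl replicate 2 or shRALY replicate 2) to 5.

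Of 12 listed factors that act on cell cycle promoters, 8 were lower and 4 did not pass, with a median of -0.72, and 6 to 8 were lower when 1 library was left out. FOXM1, an activator of mitotic genes, had 20.9 and 19.8 CPM in shRALY and 140 and 161 CPM in shControl (log2 -2.88, SE 0.13; edgeR adjusted p = 1.78e-14). TFDP1, the partner of E2F proteins, was 2.25-fold lower. NFYA, a subunit of NF-Y, was 1.26-fold lower and near the threshold (edgeR adjusted p = 0.0433). Its call was lost with DESeq2 (DESeq2 adjusted p = 0.131) and with no filter on low counts (edgeR adjusted p = 0.0738). In each of these alternatives 7 genes of the list were lower. The NFYA call was also lost without shControl replicate 2 (log2 -0.30), without shRALY replicate 1 (log2 -0.30) and without shRALY replicate 2 (log2 -0.34). RBBP4, a MuvB subunit with other roles in chromatin, had 112 ± 0.19 CPM in shRALY and 129 ± 12.8 CPM in shControl and did not pass, but was called lower without shControl replicate 2 (log2 -0.30; edgeR adjusted p = 0.00481).

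The genes whose profile was most like the mean of the 10, by Euclidean distance of centred log2 CPM over the 4 libraries, were MELK (0.046), BRCA2 (0.0502), SMC2 (0.0663), H2AFZ (0.07) and KNTC1 (0.0775), taken from protein-coding genes averaging 10 CPM or more. Their log2 fold changes lay between -2.01 and -1.85. With 4 libraries in 2 groups, likeness reflects mainly the size of the difference between groups.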

How the data were processed

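Polyadenylated RNA of 4 A549 libraries was sequenced, 2 per group, with groups and replicate numbers taken from the sample titles. The authors deposited a table of raw counts by Ensembl gene for each library. Per the submitters' processing notes, HISAT2 2.0.5, featureCounts 1.5.0-p3, DESeq2 1.20.0 and the hg38 build were used, with no role or order given; for the annotation release, strand setting and multi-mapping reads, the sources used here say nothing. Symbols, coordinates and lengths came from GENCODE 29, which matched all 58735 identifiers.

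The test was edgeR 4.0.16 under R 4.3.3 (filterByExpr with a minimum count of 10 and minimum total of 15, TMM, robust quasi-likelihood F-test, no covariate), with Benjamini-Hochberg adjustment over 15912 genes and a threshold of 0.05. CPM used TMM-scaled library sizes; 3 counts correspond to 0.163 to 0.183 CPM. Standard errors were derived as |log2 fold change| over √F. Intervals and floors cover counting error only. The edgeR and DESeq2 steps were also run on simulated counts, which gave every gene the common dispersion of the fit to these data. No result of that run is used here. The members and gene lists were chosen with earlier results of these data known. The named genes were the 10 members, RALY, and from each list the 2 most abundant, the largest called rise and the largest called fall, plus PTTG2, ESPL1, CDKN1B, CCNF and copies sharing over 2% of 50-base words with a member (this limit was set after seeing the data); other names in small counts or as exceptions were chosen after their values were seen. Words were compared between longest transcripts of genes, and genes over 20% shared or overlapped are called uncertain. Alternatives were DESeq2 1.42.0, RLE factors, library size alone, no filter, keeping genes with 10 CPM in 2 libraries, estimation that was not robust, a replicate block and each library left out.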

Additional observations from a re-analysis of the deposited data

How the results depend on the processing

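All 10 members were lower in shRALY in each of the 11 alternatives, except that FBXO43 was not tested under a filter of 10 CPM in 2 libraries, where the other 9 were lower; FBXO43 moved most, between log2 -7.18 and -3.33, and UBE2C, for comparison, between -3.21 and -2.88. Over all genes, 3274 were higher and 3245 lower; leaving out 1 library, with the spread then taken from the other group's pair, gave 2040 to 3559 higher and 1897 to 3499 lower. By list, leaving out 1 library gave 0 to 2 higher and 3 to 6 lower APC/C core subunits, 0 to 3 higher SCF core genes, 0 to 2 higher CRL4-CDT2 genes, and 2 to 5 higher and 1 to 6 lower other ubiquitin-conjugating enzymes. With library size alone 5 of those enzymes were lower, against 3. Samples with the same replicate number deviated together only weakly (r = 0.10 across genes), and with 2 numbers this does not show pairing. With the replicate number as a block, 3639 genes were higher and 3619 lower, and the count of lower ubiquitin-conjugating enzymes was 5, the list count moved by over 1.5 times in that fit. The cause of these shifts was not tested. With library size alone all log2 fold changes shifted down, with a median of -0.07 over tested genes. Depth limits FBXO43, with 18 and 1 counts in shRALY.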

Other observations

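The promoter arrangement seen in CDC20, CKS1B, CKS2, PTTG1 and FBXO5 was also counted over the tested genes outside the 10, as a description with no test. Of 10852 tested genes with a matched RefSeq promoter, 22.1% were called lower and 22.1% higher in shRALY (edgeR, adjusted threshold 0.05). Among the 134 genes with CCAAT starting 20 to 40 bases before TTTGAA or TTTAAA, 64 (47.8%) were lower and 24 (17.9%) higher, with a median log2 fold change of -0.41. With both kinds of letters anywhere in the window the share lower was 30.6% of 958 genes, with CCAAT and neither TTTGAA nor TTTAAA 23.2% of 3398, with TTTGAA or TTTAAA and no CCAAT 22.7% of 1093, with CCAAT and TTTGAA or TTTAAA only in different promoters of the same gene 24.8% of 250, and with none of these letters 19.5% of 5153. The spacing was chosen after the promoters of the 10 genes were seen, and base composition and gene function were not matched between these sets.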
